A study of Mus musculus with 61 samples.

Results

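The semaphorins, plexins, neuropilins, Slits, Robo receptors, ephrins, Eph receptors, netrins and netrin receptors were followed through RNA sequencing libraries of sorted mouse retinal cells. Members were taken by symbol: every gene whose name begins with Sema, Plxn, Slit (without Slitrk), Robo, Efna, Efnb or Unc5, Epha or Ephb with a digit, Nrp1, Nrp2, Ntn with a digit, and Dcc. The rule matched 67 of the 15149 genes kept. Unc50 (34.0 ± 9.88, SD over 61 libraries) matched by its letters only and is no netrin receptor, so it was left out of every count, which leaves 66 genes in 9 families.

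The 61 libraries came from 2 strains. DBA/2J mice carry a mutant Gpnmb allele and lose iris pigment into the front of the eye as they age, after which eye pressure rises and glaucoma follows; D2-Gpnmb+ mice share that background with a functional Gpnmb allele and serve as controls without the disease. Both strains therefore share the remaining DBA/2J genome. At 4 months (young) each strain had 10 libraries, and at 9 months DBA/2J had 25 and D2-Gpnmb+ 9 (described by the submitters as before glaucomatous damage), all on water. A further 7 libraries came from 9-month DBA/2J mice that received 500 mg/kg/d of nicotinamide, the vitamin from which cells make NAD. Eyes had no axon degeneration in the optic nerve by the labels. The sort kept cells with Thy1.2 on their surface and removed those with GFAP, Cd34, Cd45.2, Cd11c or Cd11b, and the product is called retinal ganglion cells by the labels. The labels do not state that libraries of a group came from separate mice, so a p-value measures the spread between libraries, which may be technical.

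Guidance genes encode cues and the receptors that read them at the tip of a growing axon. Slits repel axons through Robo receptors, netrins attract through Dcc and repel through Unc5 receptors, ephrins signal to Eph receptors on contact, and semaphorins act through plexins, the secreted class 3 forms with a neuropilin as co-receptor. In the developing eye these systems steer ganglion cell axons to the optic disc and across the chiasm, map them onto the brain and sort neurites into layers of the inner retina, and several also act in vessels and glia.

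Values are deposited normalised read counts. Recovered reads per library ranged from 5133114 to 19501444 with a median of 9730486. Gpnmb, the gene that separates the strains, ran from 3.69 to 14.5 in DBA/2J and from 34.7 to 129.6 in D2-Gpnmb+ at 4 months without overlap, and from 8.39 to 78.3 and from 11.9 to 83.5 at 9 months, where the strains overlapped. In the order of the table's columns the libraries form 3 stretches, a division made in earlier work after the values had been seen, and what the stretches stand for is not given in the sources used here. Stretch 1 holds 6 DBA/2J and 4 D2-Gpnmb+ libraries of 9 months, stretch 2 holds 16 and 2 of them, and stretch 3 holds 3 and 3 of them with all 4-month and all nicotinamide libraries. Age and nicotinamide therefore cannot be told apart from the stretch in 22 of the 25 9-month DBA/2J libraries and 6 of the 9 D2-Gpnmb+ ones, and values within stretch 3 are given beside most such differences. Ganglion cell markers other than Isl1, which averaged 195.3, were low. Thy1 averaged 29.4, Rbpms 11.1, Slc17a6 0.575 and Pou4f1 0.580 over the 61 libraries, and Slc17a6 was at 0 in 24 of them and Pou4f1 in 21. Pou4f2, Pou4f3, Atoh7 and Opn4 were on the list of ganglion cell markers but had no row among the 15149 genes kept. The summed level of 16 rod markers had a median of 6904 in 9-month DBA/2J on water and of 5148 in young DBA/2J, against 229 and 452 for 19 ganglion cell markers. Isl1, which is also listed as a bipolar cell marker, is in the ganglion cell sum and averaged 164 and 283 in these groups. In bulk RNA, fewer cells of a type and less RNA per cell cannot be told apart.

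Upstream windows are shown for 4 genes on which the results turn: Epha4, whose change with age differed between the strains, and Slit2, Robo1 and Sema3a, a cue, a receptor and a cue that passed the test together in the nicotinamide comparison. Each is the 250 bases before the start of transcription in RefSeq (GRCm38.p6, the build mm10 that the processing notes name), 5′ to 3′ on the gene's strand. Capitals mark the GC box GGGCGG, the core bound by Sp1, searched on both strands. The windows are chr1:77515089-77515338 on the minus strand for Epha4, chr5:47982905-47983154 on the plus strand for Slit2, chr16:72662899-72663148 on the plus strand for Robo1 and chr5:13396534-13396783 on the plus strand for Sema3a. The windows of Robo1 and Sema3a lie within the longer gene models of GENCODE M21, which begin further upstream.
Epha4: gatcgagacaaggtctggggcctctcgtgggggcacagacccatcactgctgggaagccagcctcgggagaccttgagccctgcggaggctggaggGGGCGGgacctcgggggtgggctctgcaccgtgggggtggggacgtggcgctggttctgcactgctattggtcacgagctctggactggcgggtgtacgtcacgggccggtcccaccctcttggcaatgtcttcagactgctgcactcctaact
Slit2: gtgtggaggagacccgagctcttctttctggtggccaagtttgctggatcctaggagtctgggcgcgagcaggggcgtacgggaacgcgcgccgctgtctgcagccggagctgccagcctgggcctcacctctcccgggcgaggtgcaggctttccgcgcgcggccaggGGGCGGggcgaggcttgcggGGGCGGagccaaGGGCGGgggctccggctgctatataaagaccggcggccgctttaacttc
Robo1: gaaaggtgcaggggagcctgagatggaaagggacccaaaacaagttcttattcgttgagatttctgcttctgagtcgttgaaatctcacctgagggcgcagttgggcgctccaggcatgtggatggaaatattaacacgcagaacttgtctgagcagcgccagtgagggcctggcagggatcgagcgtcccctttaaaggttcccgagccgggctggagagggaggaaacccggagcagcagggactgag
Sema3a: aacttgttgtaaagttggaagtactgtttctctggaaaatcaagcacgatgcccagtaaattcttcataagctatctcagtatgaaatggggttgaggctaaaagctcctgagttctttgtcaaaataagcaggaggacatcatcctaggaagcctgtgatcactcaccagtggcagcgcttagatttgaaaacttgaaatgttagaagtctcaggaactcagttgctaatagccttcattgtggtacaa

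The Epha4 window had 1 GC box and the Slit2 window 3, and those of Robo1 and Sema3a had 0. Of 32851 windows of this length upstream of RefSeq starts, 32.7% held the motif. The GC content was 69.6% for Slit2, 66% for Epha4, 56% for Robo1 and 40.8% for Sema3a, against a median of 52.4% over all windows. None of the 4 windows held a STAT motif (TTCNNNGAA, in 7.02% of windows), an AP-1 motif (TGANTCA, in 6.75%) or an E-box (CACGTG, in 6.02%). A match or its absence is a statement on these letters only. A window was listed for 56 of the 66 genes.

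Among receptors, levels per kb of exon were highest for the class A Eph receptors Epha4 and Epha7, while others of that class were low. Epha4, which binds ephrins of both classes, averaged 16.02 normalised reads per kb and Epha7 12.7. The plexin Plxnb1, a receptor for Sema4d, had 8.37 and the netrin receptor Unc5d 8.07. Epha6 at 0.279, Epha1 at 0.297, Ephb6 at 0.407 and Epha2 at 0.425 were the lowest Eph receptors. Robo2 (2.73 per kb) exceeded Robo1 (0.424), the endothelial receptor Robo4 (0.385) and Robo3 (0.167). Dcc, Unc5a, Unc5b and Unc5c lay close together between 1.94 and 2.45, and Nrp1 and Nrp2 were at 1.18 and 1.19.

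Among ligands, semaphorins had the highest levels. Sema7a, which is anchored by a lipid and read by Plxnc1, had 7.24 per kb, Sema5a 6.34, Sema4d 4.94, Sema3e 4.69 and Sema6a 4.44, while the secreted repellents Sema3a (0.178) and Sema3c (0.212) were the lowest of 19. Efna5 (4.12) and Efnb2 (3.04) led the 8 ephrins, and Efna3 at 0.123 was the lowest of all 66 genes. Slit2 had 3.36 per kb, Slit3 1.60 and Slit1 0.362. Among netrins, Ntn4, a component of basement membranes, had 2.18, Ntn3 1.18 and Ntn1, the cue of the optic disc, 0.158. Every library held at least 1 read of 48 of the 67 genes of the rule, and Efna3, the least often seen, had a read in 41 libraries.

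**Figure D1:**
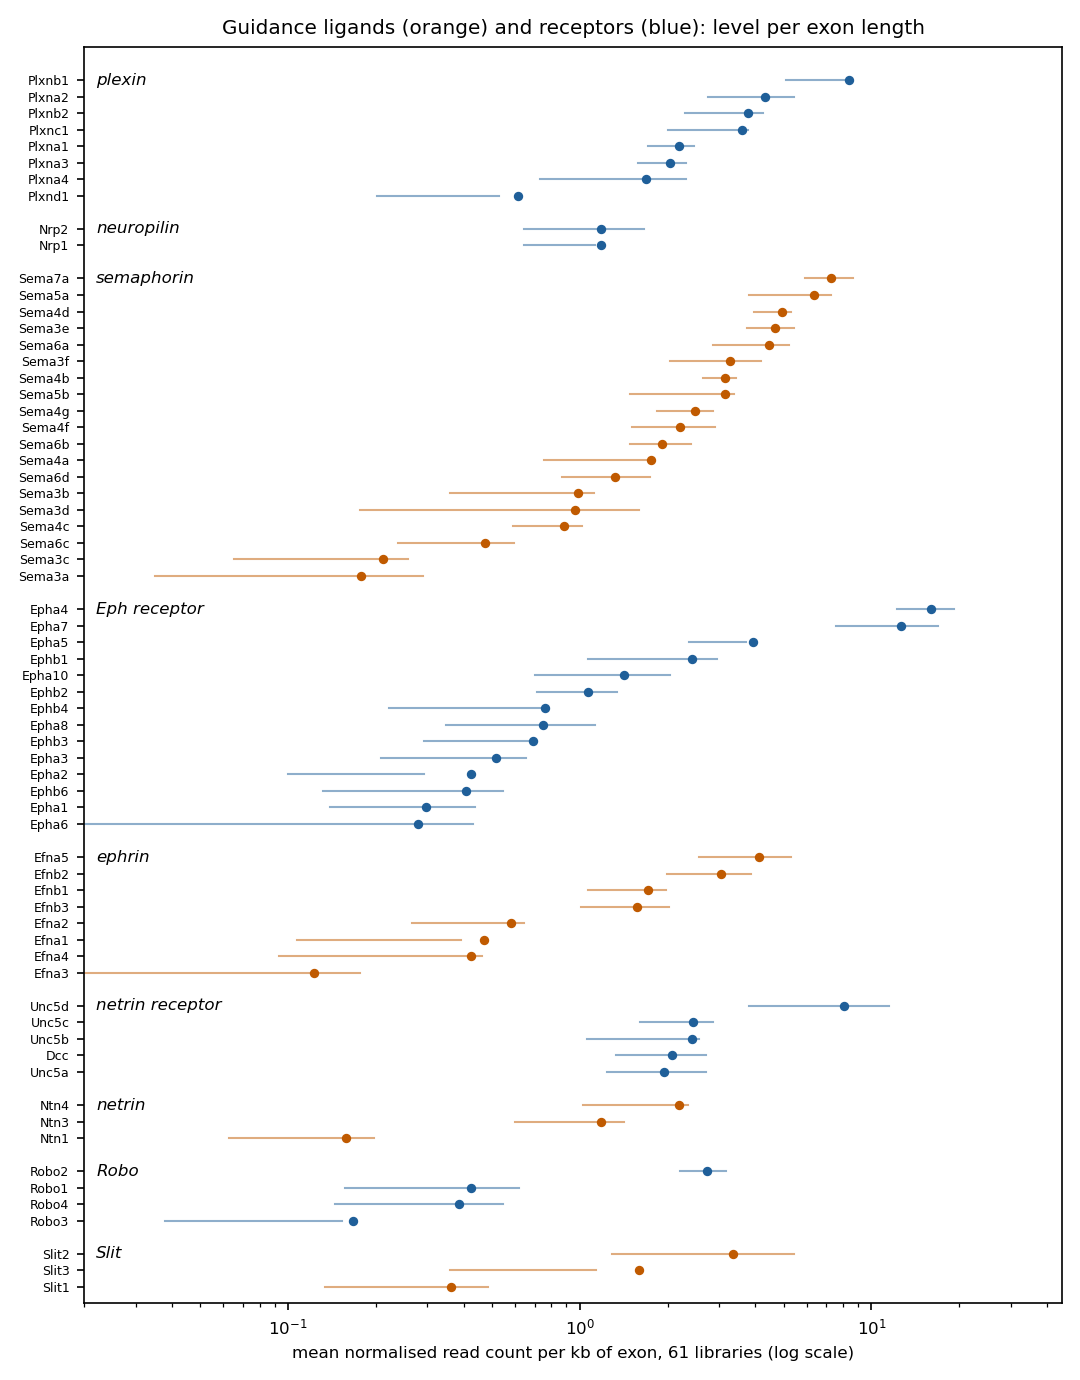
Mean normalised read count per kb of exon for the 66 genes over 61 libraries on a log axis, grouped by family, with ligands in orange and receptors in blue; lines run from the 25th to the 75th percentile of libraries, and a dot beyond its line marks a mean set by a few high libraries. Epha4 (16.02 per kb), Epha7 (12.7) and Plxnb1 (8.37) stand highest, Efna3 (0.123) lowest.

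Levels of many guidance genes at 9 months differed by the stretch of columns. Epha7 had a median of 159.7 in D2-Gpnmb+ and 159 in DBA/2J mice at 4 months. In 9-month D2-Gpnmb+ mice it had medians of 35.6, 127.7 and 188 in stretches 1, 2 and 3, and in 9-month DBA/2J mice of 48.0, 80.4 and 218. Its 9-month median thus lay above the young one in stretch 3 and below it in stretches 1 and 2, in both strains. Plxnd1, a plexin of vessels and neurons that reads Sema3e, went the other way, with 21.4, 1.94 and 2.58 in 9-month D2-Gpnmb+ and 13.4, 3.07 and 1.55 in 9-month DBA/2J. Other cell markers moved with the stretch. The summed level of 16 Müller glia and astrocyte markers had medians of 15648 and 6761 in the stretch 1 libraries of D2-Gpnmb+ and DBA/2J, 3050 and 3953 in stretch 2, and 2428 and 1533 in stretch 3 at 9 months. The sum of 12 vessel markers had medians of 1471 and 1022 in stretch 1 and of 227 and 172 in stretch 3. The part of these markers in the levels of guidance genes was not tested.

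**Figure D2:**
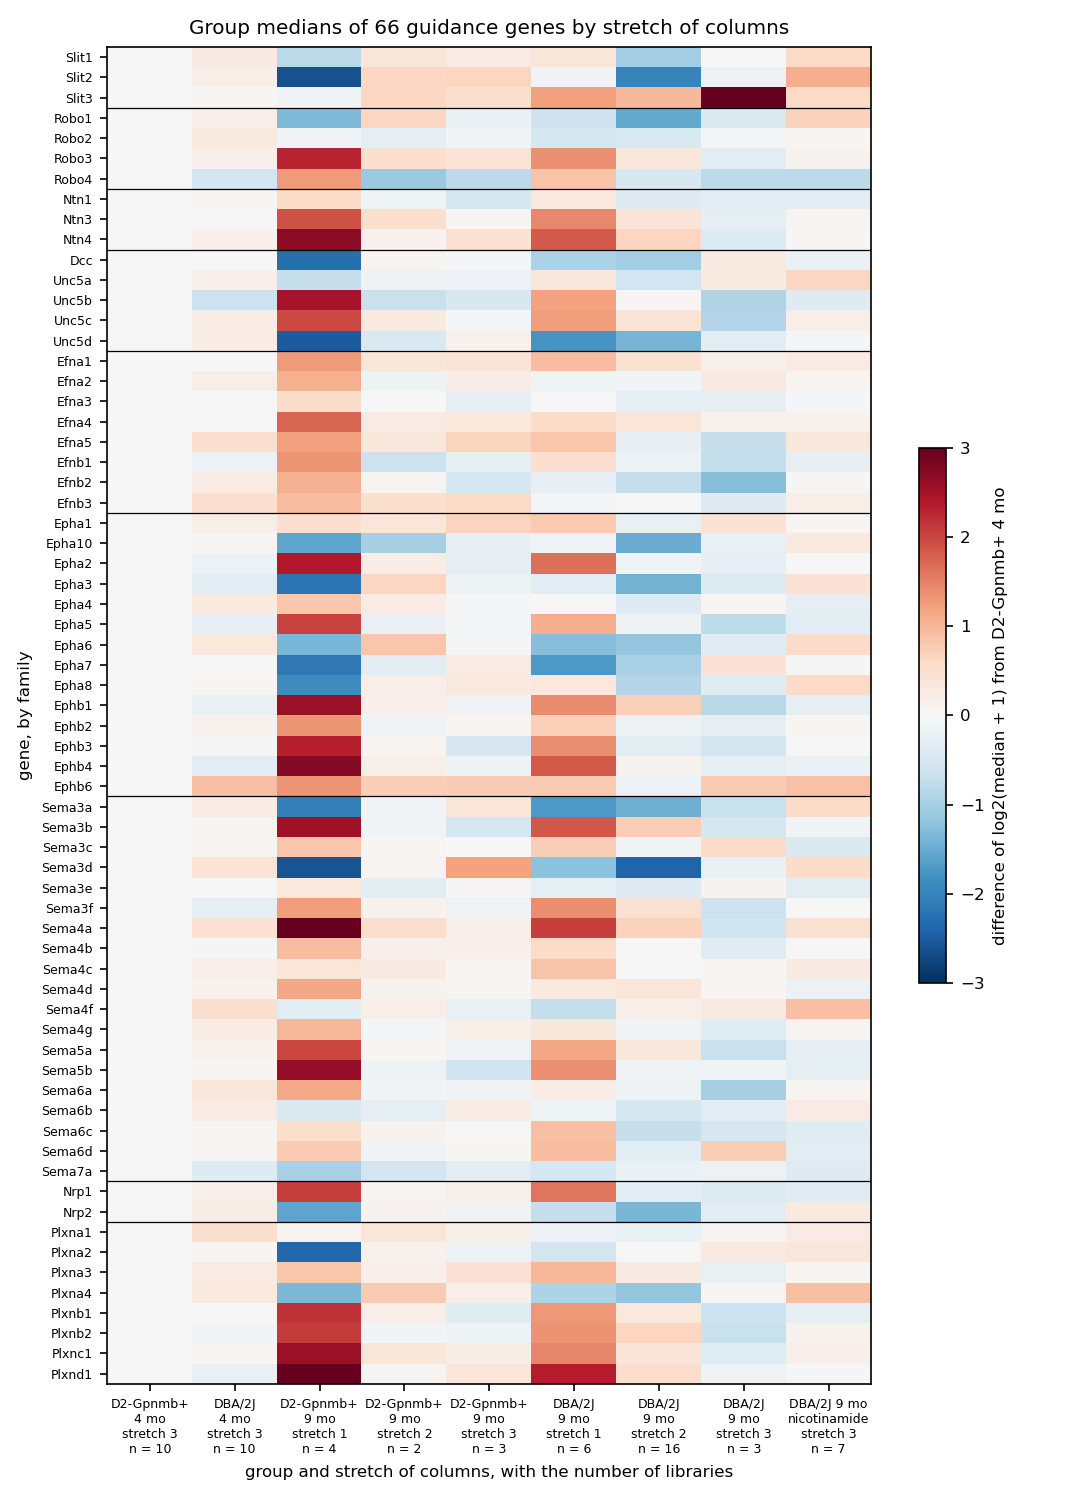
Difference of log2(median + 1) from young D2-Gpnmb+ mice for each of the 66 genes, by group and stretch of columns, with the number of libraries under each column; red is higher, blue lower, and colours end at 3. In 9-month D2-Gpnmb+ of stretch 1, Epha7 (median 35.6) is blue and Plxnd1 (21.4) red; in stretch 3 their medians (188 and 2.58) lie nearer the young ones.

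From 4 to 9 months in DBA/2J mice, over all libraries, 20 of the 64 guidance genes tested passed the test, 3 higher and 17 lower at 9 months. Of all 13587 genes tested, 22.4% passed, 9.25% higher and 13.2% lower. The test was limma on log2(value + 1) over all genes with Benjamini-Hochberg adjustment and a threshold of 0.05, fold changes are on that log2 scale with standard errors, and it holds for every adjusted p below unless another tool is named. The median log2 difference was -0.06 for guidance genes and 0.02 for all genes. Lower genes were spread over the families: 4 of 14 Eph receptors, 4 of 19 semaphorins, 2 of 5 netrin receptors, 2 of 4 Robo receptors, 2 of 6 ephrins tested, 2 of 8 plexins and 1 of 2 neuropilins. Slit3 and the plexins Plxnd1 and Plxnb2 were higher. Within stretch 3, where 3 libraries of 9 months stand against 10 of 4 months, 2 of 61 passed (Slit3 higher, Sema6a lower), with 0.263% of all genes. With the stretch as a term in the fit over all libraries, 0 guidance genes passed with limma, and 8 of 13587 genes in all did. Slit3 had an adjusted p of 0.0502 there. All young libraries belong to stretch 3, so with this term the age difference comes from stretch 3 alone. It is therefore no second estimate beside the fit within stretch 3.

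Nicotinamide against water in 9-month DBA/2J mice showed 16 of 64 guidance genes higher and 0 lower, with 15.1% of 13925 genes called, 9.78% higher and 5.34% lower. The comparison shares its 25 water libraries with the age comparison, and a high or low value there enters both. The 16 were the cues Sema3a, Sema3d, Sema4f and Slit2 and the receptors Robo1, Robo2, Dcc, Unc5d, Nrp2, Plxna1, Plxna4, Epha3, Epha6, Epha7, Epha8 and Epha10. With edgeR on recovered reads, 10 were higher and 1, Plxnd1, lower, with 16.3% of all genes called (7.4% higher, 8.93% lower). DESeq2 gave 10 higher and 8 lower, with 21.1% (8.52% higher, 12.6% lower). Within stretch 3, 7 nicotinamide libraries against 3 on water gave 0 of 59 with limma, and 0.00749% of all genes. There, 26 of the 59 had an unadjusted p under 0.05, against 16.8% of all genes, and 44 of 59 had a positive difference with a median of 0.39 against 0.01 over all genes. Leaving out water library 27 in stretch 3 gave 7 of 61, with 2.77% of all genes, and leaving out library 26 or 28 gave 0. The count under an unadjusted p of 0.05 rested in large part on library 26, the shallowest of the 61 (5133114 reads). Without it, 9 of 61 were under 0.05, against 13.4% of all genes, and 45 of 61 were positive. Without library 27 or 28, 36 of 61 and 25 of 60 were under 0.05, against 20.2% and 15.9% of all genes.

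Markers of several cell types moved with both comparisons, amacrine and horizontal cells among them. Of 10 tested, 7 were lower at 9 months in DBA/2J and 9 were higher with nicotinamide. Their summed level over 12 genes ran from 138.5 to 1179 in young DBA/2J, from 49.9 to 528.5 at 9 months on water and from 219.8 to 1219.5 with nicotinamide, with medians of 514, 100.0 and 723. Of 16 Müller glia and astrocyte markers, 8 were higher at 9 months and 6 lower with nicotinamide. Their sum ran from 1328 to 4582 in young DBA/2J, from 415 to 8519 at 9 months on water and from 1462 to 2766 with nicotinamide. The direction of these glial markers reversed within stretch 3. Their median log2 difference was 0.86 for age and -0.92 for nicotinamide over all libraries, and -0.90 and 0.68 within stretch 3. The medians of their sum in stretch 3 were 2352 in young DBA/2J, 1533 on water at 9 months and 2108 with nicotinamide. Of 11 microglia and macrophage markers tested, 10 were higher at 9 months and 5 lower with nicotinamide, with summed levels over 13 genes of 1.73 to 6.44 in young DBA/2J, 1.82 to 362 at 9 months on water and 2.31 to 4.17 with nicotinamide. Of the ganglion cell markers, 5 of 16 tested were lower at 9 months and 5 of 17 higher with nicotinamide. Isl1 was among the 5 lower ones and is counted again below among the lower bipolar cell markers. Of 11 cone markers 2 were lower at 9 months and 8 higher with nicotinamide, with summed levels of 1153 to 2310 in young DBA/2J, 726 to 2461 at 9 months on water and 1885 to 3080 with nicotinamide. Of 14 bipolar cell markers 5 were lower and 1 higher at 9 months and 2 higher with nicotinamide, and of 16 rod markers 6 were higher at 9 months and 0 passed with nicotinamide. Within stretch 3, 0 genes of each of these lists passed with limma, but of the microglia and macrophage markers only 1 of 13 was tested there. The part of these cells in the changes below was not tested.

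Slit3 (chromosome 11, 35121224 to 35708507, plus strand), a secreted Slit repellent, was higher in DBA/2J mice at 9 months. It had a lowest value of 1.28, a median of 6.90 and a highest value of 96.2 in the 25 libraries on water at 9 months, against 0.94, 2.46 and 4.55 in the 10 young ones. In 17 of the 25 it lay above every young library, and the rest overlapped. The highest were library 26 (96.2), library 16 (53.0), library 14 (46.0), library 28 (37.2) and library 3 (33.7), which belong to all 3 stretches. The log2 fold change was 1.51 ± 0.46 (adjusted p = 0.0164), with edgeR 2.61 (adjusted p = 0.00382). Leaving out any 1 library kept it past the threshold, from 1.37 to 1.60. Within stretch 3 the 3 water libraries had 12.1, 37.2 and 96.2, all above the 10 young ones, and the log2 fold change was 3.44 ± 0.44 (adjusted p = 0.00473). Without library 26 it was 2.73 (adjusted p = 0.00346).

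In D2-Gpnmb+ mice Slit3 stayed low at both ages, with 1.08, 2.32 and 5.40 at 4 months and 1.52, 2.96 and 7.06 at 9 months as lowest, median and highest values. These ranges overlapped. The change with age in DBA/2J minus that in D2-Gpnmb+ was 1.29 ± 0.62 over all libraries (adjusted p = 0.364) and 3.16 ± 0.55 within stretch 3 (adjusted p = 0.0103), where Slit3 was the 1 guidance gene of 62 that passed, with 0.0774% of all genes. Within stretch 3 the 9-month D2-Gpnmb+ libraries had 2.81, 3.66 and 3.80. This interaction within stretch 3 was not refitted without single libraries. DBA/2J minus D2-Gpnmb+ at 9 months, tested directly, was 1.19 over all libraries (adjusted p = 0.268). It was 3.05 ± 0.61 within stretch 3 (adjusted p = 0.661) and 1.37 ± 0.44 within stretch 1 (adjusted p = 0.0422), so only stretch 1 of these 3 fits gave a call. With nicotinamide, 6 of the 7 libraries lay between 2.99 and 8.12 and library 2 at 81.7, and the difference from water was -0.26 ± 0.60 (adjusted p = 0.807) over all libraries and -2.19 ± 0.93 within stretch 3 (adjusted p = 0.276).

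Slit2 (chromosome 5, 47983138 to 48307733, plus strand), with 3 GC boxes in the window shown above, is the repellent that keeps ganglion cell axons in their path at the chiasm. It had 32.7, 91.2 and 190.9 in young DBA/2J, 4.84, 42.0 and 167 at 9 months on water and 88.4, 174 and 223 with nicotinamide as lowest, median and highest values. In 4 of 7 nicotinamide libraries it lay above all 25 water libraries. The log2 difference was 2.08 ± 0.51 (adjusted p = 0.00539) over all libraries and 1.21 ± 0.37 within stretch 3 (adjusted p = 0.163), where the 3 water libraries had 33.7, 71.8 and 137.9. Slit1, also made in the retina, had medians of 2.21 in young DBA/2J, 1.16 at 9 months and 3.03 with nicotinamide and passed in neither comparison.

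Robo2 (chromosome 16, 73891839 to 74411825, minus strand), the main Slit receptor of ganglion cell axons, shared the smallest adjusted p among guidance genes for age in DBA/2J with Unc5d. It had 47.5, 61.8 and 70.7 at 4 months and 21.8, 36.5 and 51.4 at 9 months. In 22 of the 25 older libraries it lay below all 10 young ones. The log2 fold change was -0.71 ± 0.11 (adjusted p = 6.01e-05) over all libraries and -0.42 ± 0.14 within stretch 3 (adjusted p = 0.267), where the older libraries had 34.7, 49.1 and 51.4. With nicotinamide it had 43.6, 51.2 and 65.7, which is 0.56 ± 0.13 above water over all libraries (adjusted p = 0.00291) and 0.27 ± 0.15 within stretch 3 (adjusted p = 0.378).

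Robo1 (chromosome 16, 72308306 to 73046095, plus strand) also had its lowest median in 9-month DBA/2J on water. Its lowest, median and highest values were 1.38, 8.74 and 24.1 in young DBA/2J, 0.129, 2.60 and 12.9 at 9 months and 5.96, 12.8 and 20.2 with nicotinamide. All 3 ranges overlapped, with 3 of 7 nicotinamide libraries above every water library. The age difference was -1.23 ± 0.36 (adjusted p = 0.0138) and -0.86 ± 0.53 within stretch 3 (adjusted p = 0.622). The nicotinamide difference was 1.63 ± 0.40 (adjusted p = 0.00538) and 1.26 ± 0.37 within stretch 3 (adjusted p = 0.141). Robo3 and Robo4 passed in neither comparison.

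**Figure D3:**
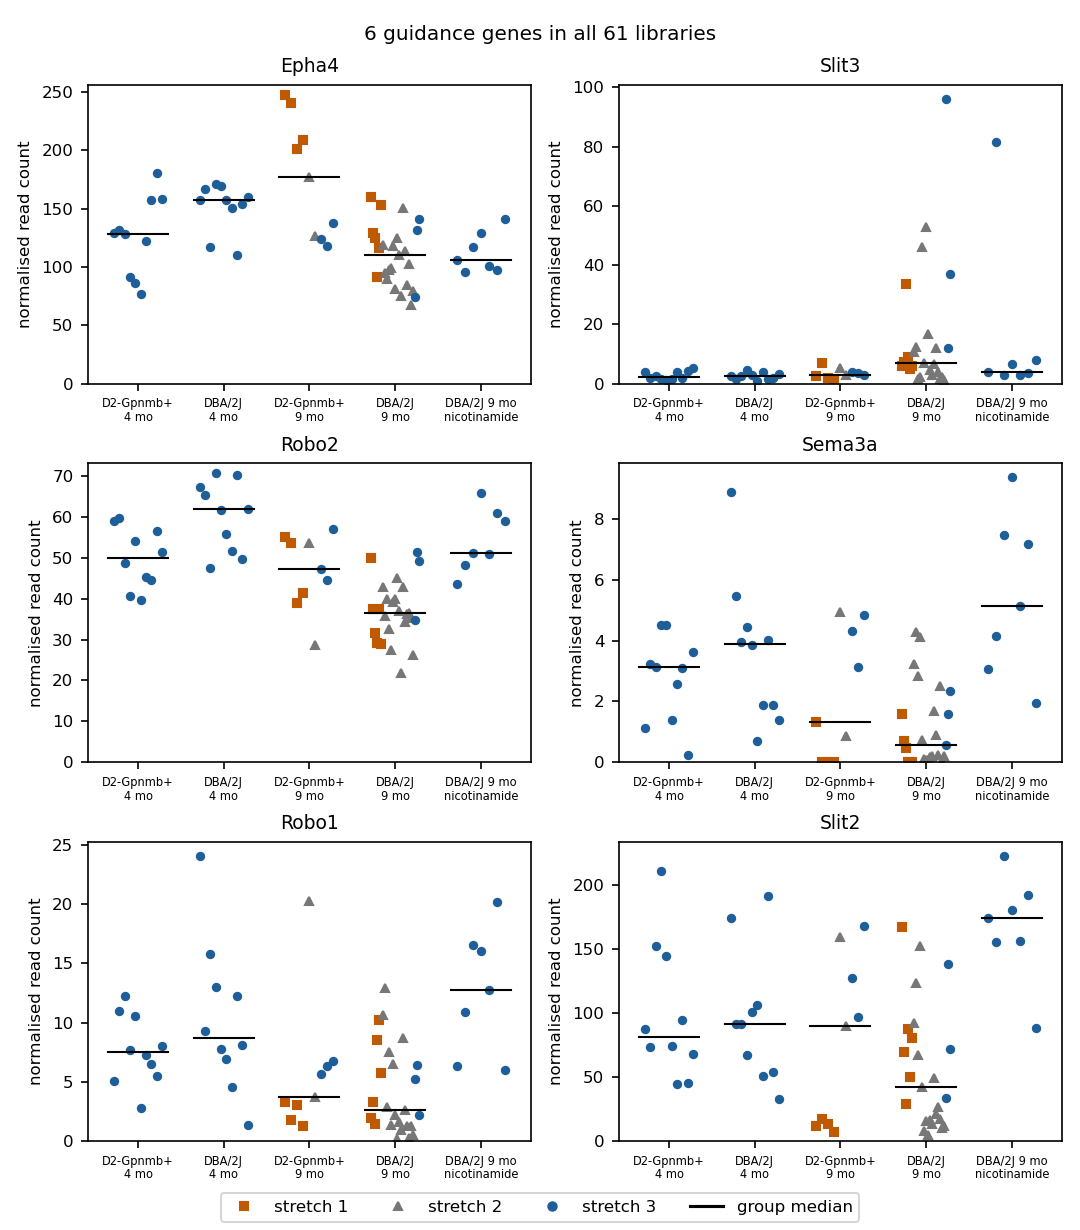
Normalised read count of 6 guidance genes in each of the 61 libraries, by group; bars are group medians, and colour and shape give the stretch of columns (squares stretch 1, triangles stretch 2, circles stretch 3). Slit3 is spread up to 96.2 in 9-month DBA/2J alone of the water groups, Epha4 is highest in the 4 stretch 1 libraries of 9-month D2-Gpnmb+, and Robo2, Sema3a, Robo1 and Slit2 have lower medians in 9-month DBA/2J on water than in young or nicotinamide libraries.

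Of the netrin receptors, Unc5d and Dcc were lower at 9 months and higher with nicotinamide over all libraries, and neither difference was called within stretch 3. Unc5d, a repulsive receptor that also binds the FLRT proteins, had 65.7, 121 and 153 in young DBA/2J and 13.9, 37.6 and 134 at 9 months. In 22 of 25 older libraries it lay below all young ones, and the 3 others were those of stretch 3, at 81.1, 81.8 and 134. The age difference was -1.45 ± 0.22 (adjusted p = 6.01e-05) over all libraries and -0.18 ± 0.24 within stretch 3 (adjusted p = 0.851). For nicotinamide it was 1.30 ± 0.25 (adjusted p = 0.000785) and 0.04 ± 0.18 (adjusted p = 0.941).

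Dcc, the attractive netrin receptor that leads axons out of the eye, changed sign. Its age difference was -0.89 ± 0.22 (adjusted p = 0.00385) over all libraries and 0.16 ± 0.21 within stretch 3 (adjusted p = 0.854), and its nicotinamide difference 0.74 ± 0.25 (adjusted p = 0.0413) and -0.30 ± 0.16 (adjusted p = 0.358). Unc5a, Unc5b and Unc5c passed in neither. Within stretch 3, Unc5c had 11.6, 16.7 and 26.7 on water at 9 months, against 25.3, 36.8 and 63.1 in young DBA/2J and 26.8, 36.5 and 47.2 with nicotinamide as lowest, median and highest values; the differences were -1.11 (adjusted p = 0.0859) and 0.98 (adjusted p = 0.0886). Of the netrins, Ntn1 had medians of 1.09, 0.904 and 0.630 in young, 9-month and nicotinamide DBA/2J, and no netrin passed.

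Epha4 (chromosome 1, 77367185 to 77515088, minus strand) was the guidance gene whose change with age differed between the strains over all libraries. It had lowest, median and highest values of 109.9, 157 and 171 in young DBA/2J and 67.0, 110.2 and 160.2 at 9 months, and of 76.6, 128 and 180.5 and 118, 178 and 247.5 in D2-Gpnmb+. In DBA/2J, 12 of 25 older libraries lay below all young ones, and in D2-Gpnmb+ 4 of 9 lay above all young ones. The change was -0.49 ± 0.12 in DBA/2J (adjusted p = 0.00345) and 0.47 ± 0.18 in D2-Gpnmb+ (adjusted p = 0.102), and -0.42 ± 0.17 and 0.05 ± 0.20 within stretch 3 (adjusted p = 0.347 and 0.999). Their difference was -0.96 ± 0.21 (adjusted p = 0.0256), and Epha4 was the 1 of 65 guidance genes that passed, with 0.375% of all genes. With edgeR it was -0.94 (adjusted p = 0.0241), with the stretch as a term -0.87 (adjusted p = 0.0315), and within stretch 3 -0.47 ± 0.28 (adjusted p = 0.686). It passed in 46 of the 54 fits that left out 1 library. The 4 high D2-Gpnmb+ libraries were those of stretch 1, at 201 to 247.5, and those of stretch 3 had 118, 124 and 138.

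With nicotinamide Epha4 had 95.8, 106 and 140.8, a difference of 0.07 ± 0.14 from water (adjusted p = 0.782) and -0.43 ± 0.10 from young DBA/2J (adjusted p = 0.0342), with 4 of 7 below all 10 young libraries. It was the 1 of 58 guidance genes that passed against young DBA/2J, with 1.54% of all genes, and all these libraries belong to stretch 3. The call was lost in 10 of the 17 fits that left out 1 library, and with reads scaled to the library total (-0.39, adjusted p = 0.0922).

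The class A receptors Epha7, Epha6 and Epha10 were lower at 9 months in DBA/2J, and these 3 with Epha3 and Epha8 were higher with nicotinamide. Epha6, one of the receptors that map temporal axons, was at 0.126, 2.21 and 4.34 in young DBA/2J, 0, 0.107 and 3.99 at 9 months and 1.19, 2.86 and 4.46 with nicotinamide; the older water libraries reached down to 0 and the groups overlapped. Its differences were -1.01 ± 0.26 for age (adjusted p = 0.00549) and 1.26 ± 0.29 for nicotinamide (adjusted p = 0.00283), and -0.64 and 0.89 within stretch 3 (adjusted p = 0.622 and 0.209). Epha7 fell by 1.02 on the log2 scale (± 0.23, adjusted p = 0.00172) over all libraries, with 21 older libraries below and 3 above all young ones. Those 3 were the stretch 3 libraries, at 199.7, 218 and 243, where the difference was 0.47 ± 0.13 (adjusted p = 0.148). Its nicotinamide difference was 1.11 ± 0.27 (adjusted p = 0.00569) and -0.38 ± 0.17 within stretch 3 (adjusted p = 0.269). Epha10 had -1.12 ± 0.34 for age (adjusted p = 0.0165) and 1.26 ± 0.41 for nicotinamide (adjusted p = 0.035), and 0.07 and 0.06 within stretch 3 (adjusted p = 0.947 and 0.943). Epha8 had 1.17 ± 0.36 (adjusted p = 0.0238) and a close 1.13 ± 0.28 within stretch 3 (adjusted p = 0.1).

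Of the ephrins, which are the membrane-bound partners of these receptors, Efnb2 and Efnb3 were lower at 9 months in DBA/2J. Efnb2, the cue that turns axons back at the chiasm and a marker of arteries, had 15.7, 25.1 and 35.7 at 4 months and 2.71, 14.2 and 40.3 at 9 months. The groups overlapped at both ends. The difference was -0.84 ± 0.26 (adjusted p = 0.017) and -1.61 ± 0.34 within stretch 3 (adjusted p = 0.0757), where the older libraries had 2.71, 8.10 and 16.6. Efnb3 differed by -0.73 ± 0.24 (adjusted p = 0.0251) and by -0.74 ± 0.31 within stretch 3 (adjusted p = 0.381). With nicotinamide Efnb2 had a median of 21.7 and was not called, and no other ephrin passed in the nicotinamide comparison.

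Among the 4 semaphorins called for age in DBA/2J over all libraries, the secreted Sema3d and Sema3a differed most. Sema3d had 3.53, 12.9 and 26.7 in young DBA/2J, 0, 1.58 and 24.8 at 9 months and 10.6, 14.2 and 16.3 with nicotinamide. In 16 of 25 older water libraries it lay below all young ones, but the 3 of stretch 3 had 6.99, 8.14 and 24.8. The age difference was -2.13 ± 0.39 (adjusted p = 0.000325) over all libraries and -0.07 ± 0.48 within stretch 3 (adjusted p = 0.973), and the nicotinamide difference 2.36 ± 0.44 (adjusted p = 0.000539) and 0.30 ± 0.29 (adjusted p = 0.649).

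Sema3a (chromosome 5, 13125414 to 13602565, plus strand), the ligand of Nrp1 with class A plexins, had 0.705, 3.91 and 8.89 in young DBA/2J, 0, 0.582 and 4.28 at 9 months and 1.95, 5.14 and 9.37 with nicotinamide. In 13 of 25 older water libraries it lay below all young ones, and 4 of 7 nicotinamide libraries lay above all on water. It differed by -1.18 ± 0.29 with age (adjusted p = 0.00344) and by 1.71 ± 0.32 with nicotinamide (adjusted p = 0.0006). Within stretch 3, with 0.582, 1.58 and 2.33 on water, these were -0.79 ± 0.42 (adjusted p = 0.523) and 1.32 ± 0.36 (adjusted p = 0.124), the same directions without a call.

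Sema6a, a membrane semaphorin that sorts inner retinal neurites into layers with Plxna2 and Plxna4, was the other gene called within stretch 3. It had 25.2, 45.6 and 77.8 in young DBA/2J and 7.43, 33.4 and 54.4 at 9 months. Within stretch 3 the older libraries had 10.5, 17.1 and 23.7, all below the young ones. The difference was -0.75 ± 0.24 over all libraries (adjusted p = 0.0203) and -1.48 ± 0.28 within stretch 3 (adjusted p = 0.0397). Without library 26 it was -1.19 (adjusted p = 0.525), and without library 28 -1.52 (adjusted p = 0.113). Sema6d moved the other way with age within stretch 3, by 0.70 ± 0.30 (adjusted p = 0.397). It had 18.4, 20.99 and 25.8 there on water at 9 months and 8.28, 9.42 and 13.6 with nicotinamide as lowest, median and highest values. These 9-month groups did not overlap in stretch 3, and the nicotinamide difference was -1.04 ± 0.17 (adjusted p = 0.0585).

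Of the receptors for semaphorins, the co-receptor Nrp2 and the plexins Plxna1 and Plxna4 were lower at 9 months and higher with nicotinamide over all libraries. Within stretch 3, 0 neuropilins and 0 plexins were called in either comparison. The age difference of Nrp2 was -1.20 (adjusted p = 0.0062) over all libraries and -0.29 (adjusted p = 0.892) within stretch 3. That of Plxna1 was -0.50 (adjusted p = 0.0178) and -0.29 (adjusted p = 0.719). Plxna4, the partner of Nrp1 and of class 6 semaphorins, had 16.3, 29.2 and 59.6 in young DBA/2J, 3.03, 11.7 and 38.7 at 9 months and 23.4, 44.6 and 66.4 with nicotinamide. In 17 of 25 water libraries it lay below all young ones, and 5 of 7 nicotinamide libraries lay above all on water. The age difference was -1.11 ± 0.31 (adjusted p = 0.00901) and the nicotinamide difference 1.69 ± 0.36 (adjusted p = 0.00156). Within stretch 3 these were -0.27 ± 0.34 (adjusted p = 0.837) and 0.86 ± 0.33 (adjusted p = 0.226).

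Plxnd1 and Plxnb2 were higher at 9 months in DBA/2J. Plxnd1 had 0.263, 1.41 and 2.93 at 4 months and 0.517, 3.16 and 16.98 at 9 months, and its difference was 1.02 ± 0.31 (adjusted p = 0.0166) over all libraries and 0.07 ± 0.30 within stretch 3 (adjusted p = 0.967). The 6 libraries of stretch 1 had 9.94 to 16.98 and those of stretch 3 at most 2.23. Plxnb2, a receptor for class 4 semaphorins, changed from 0.66 ± 0.22 (adjusted p = 0.0261) to -0.58 ± 0.23 within stretch 3 (adjusted p = 0.345). Against the 3 water libraries there, at 9.11, 11.9 and 15.5, the nicotinamide libraries ran from 19.3 to 23.5 without overlap, a difference of 0.78 ± 0.15 (adjusted p = 0.0585).

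**Figure D4:**
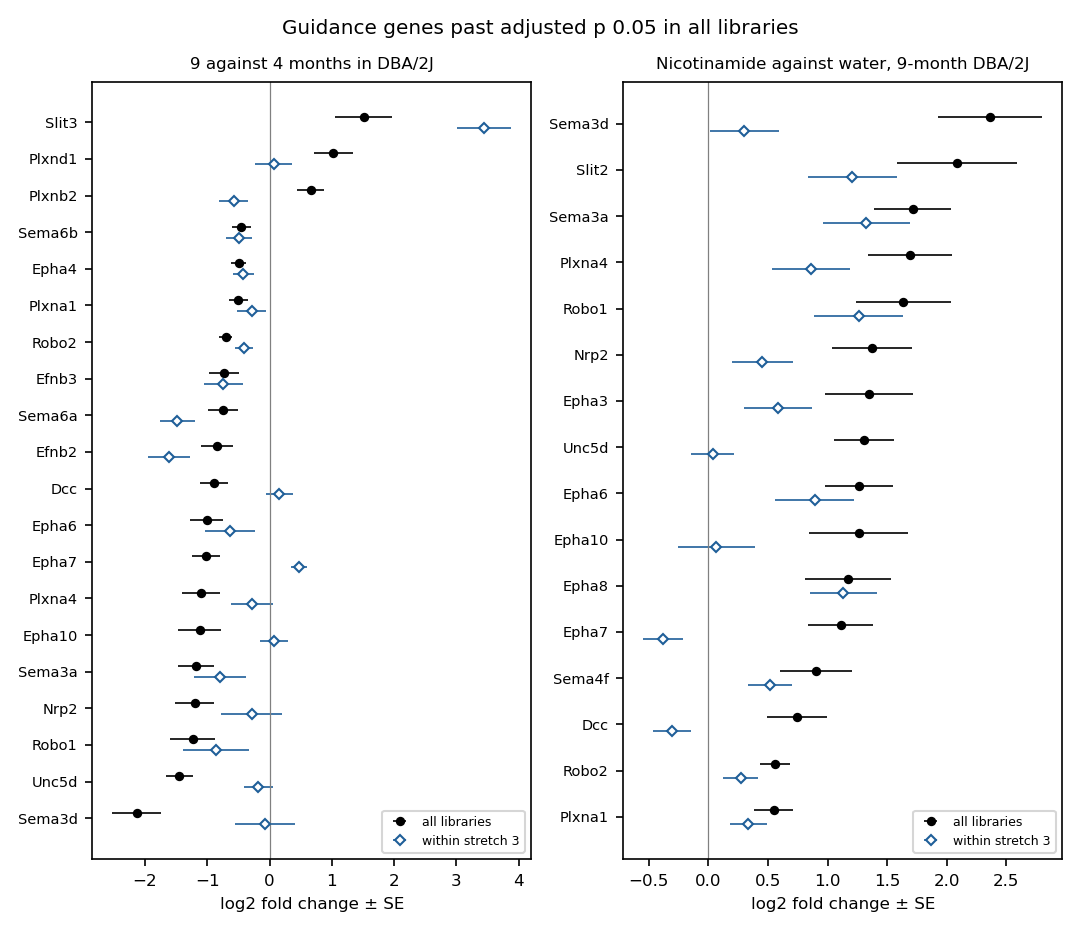
Log2 fold changes with standard errors of the genes past an adjusted p of 0.05, for age in DBA/2J (left, 20 genes) and nicotinamide (right, 16 genes); black dots are fits over all libraries and open blue diamonds fits within stretch 3. Slit3 is larger within stretch 3 (3.44 against 1.51), and Epha7, Dcc, Plxnb2 and Epha10 lie on the other side of 0 for age.

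DBA/2J and D2-Gpnmb+ differed in 0 of 58 guidance genes tested at 4 months, with 0.25% of all genes called. With limma 10 of them had an unadjusted p under 0.05, as did 13.5% of all genes, and edgeR and DESeq2 called 0 (0.281% and 1.87% of all genes). The smallest adjusted p was that of Efnb3 (0.55 higher on the log2 scale in DBA/2J, adjusted p = 0.199). The median difference at 4 months was 0.12 over guidance genes and 0.009 over all genes, and 44 of 58 were positive. At 9 months 0 of 65 passed with 0.0218% of all genes, 14 had an unadjusted p under 0.05 (13.2% of all genes), edgeR called 1, Epha4 (0.08% of all genes), and DESeq2 3 (2.31%). Epha4 was at -0.67 ± 0.14 (adjusted p = 0.0636), and 15 of 25 DBA/2J libraries lay below all 9 of D2-Gpnmb+. The median difference at 9 months was -0.41 over guidance genes and -0.03 over all genes, and 6 of 65 were positive. The strains were spread unevenly over the stretches. With the stretch as a term, 17 of 65 were positive, with a median of -0.29 against -0.02 over all genes. Within stretches 1, 2 and 3, 25 of 63, 23 of 66 and 12 of 59 were positive. The share positive over all genes was not counted at either age. In stretches 2 and 3 alone, 0 of 66 and 0 of 59 passed with limma, as did 0 of 14549 and 0 of 12941 genes in all. There, 10 and 13 guidance genes had an unadjusted p under 0.05, against 5.42% and 6.36% of all genes.

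Within stretch 1, 27 of 63 guidance genes differed between the strains at 9 months, 8 higher and 19 lower in DBA/2J, with 12.3% of all 13451 genes called (4.56% higher and 7.69% lower), from 6 libraries against 4. Lower genes were 7 of 18 semaphorins (Sema3e, Sema4a, Sema4d, Sema4g, Sema5a, Sema5b and Sema6a), 4 of 13 Eph receptors (Epha4, Epha5, Ephb1 and Ephb3), Plxnb1, Plxnb2 and Plxnc1, Efnb2 and Efnb3, Unc5b and Unc5c, and Ntn4. Higher genes were Slit2, Slit3, Epha3, Epha8, Epha10, Plxna2, Dcc and Unc5a. Leaving out each of the 10 libraries gave 20 to 28 calls. Müller glia and astrocyte markers had the direction of the 19 lower guidance genes and not of the 8 higher ones. Of these markers, 13 of 16 were lower in DBA/2J and 0 higher, and their sum ran from 3971 to 8519 against 11465 to 16366. Of 16 rod markers 14 were higher in DBA/2J, with sums of 6263 to 9691 against 823 to 5123. Of 11 cone markers 10 were higher, with sums of 1487 to 2214 against 503 to 980, and of 14 bipolar cell markers 4 were higher. The sum of 12 vessel markers ran from 634 to 1331 in DBA/2J and from 1197 to 1580 in D2-Gpnmb+, and the part of any of these cells was not tested.

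Slit2 differed most. It had 28.6, 75.1 and 167 as lowest, median and highest values in the 6 DBA/2J libraries, against 6.77, 12.1, 12.9 and 16.9 in the 4 of D2-Gpnmb+, without overlap (2.49 ± 0.35, adjusted p = 0.000322). Epha8, an Eph receptor of class A, had 2.26, 4.80 and 8.63 against 0.0564, 0.197, 0.329 and 0.509 (2.17 ± 0.35, adjusted p = 0.000401). In the opposite direction, Epha5, a receptor of the retinal map, had 81.5, 119 and 139 in DBA/2J against 209.7, 223, 233 and 267 (-1.06 ± 0.16, adjusted p = 0.000341). Unc5b, a netrin receptor of vessels, had 20.998, 26.1 and 34.5 against 51.5, 59.7, 69.8 and 83.2 (-1.27 ± 0.20, adjusted p = 0.00036). Outside stretch 1 the directions were not all the same. In stretch 2, with 16 DBA/2J and 2 D2-Gpnmb+ libraries, Slit2 had medians of 19.5 and 124.4. Epha8 had 1.54 and 4.34 there, Unc5b 11.1 and 6.46, and Epha5 49.8 and 47.3. Within stretch 3 the differences were -0.86 for Slit2, -0.79 for Epha8, -0.50 for Unc5b and -1.02 for Epha5. Their adjusted p ran from 0.737 to 0.875.

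Sema5a, which with Sema5b confines inner retinal neurites through Plxna1 and Plxna3, had 97.0, 192 and 228.5 in DBA/2J of stretch 1 against 313, 345, 348 and 426 in D2-Gpnmb+ (-1.02 ± 0.19, adjusted p = 0.00116). Outside stretch 1 it did not separate the strains in the same way: the 3 D2-Gpnmb+ libraries of stretch 3 had 51.6, 78.6 and 112 and the 3 of DBA/2J 14.7, 53.7 and 74.5, which overlap. Epha4 was lower in DBA/2J in each stretch, by -0.81 (adjusted p = 0.00203), -0.60 (adjusted p = 0.813) and -0.18 (adjusted p = 0.924) in stretches 1, 2 and 3.

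Age in D2-Gpnmb+ mice gave 0 of 60 guidance genes with limma and 0.0232% of all genes, with 31 at an unadjusted p under 0.05, against 30.3% of all genes. On recovered reads edgeR called 22, all higher at 9 months, with 11.6% of all genes called (10.2% higher, 1.34% lower). DESeq2 called 25, of which 24 were higher, with 16.4% (13.3% higher, 3.03% lower). Those of edgeR included Plxnd1, Plxnc1, Ephb1, Ephb4, Sema5b, Sema4a, Unc5b and Ntn4. Plxnd1 ran from 14.9 to 29.7 in the 4 older libraries of stretch 1 and from 2.24 to 3.07 in the 3 of stretch 3. Within stretch 3, with 3 older libraries against 10, 0 of 61 passed with limma, 0% of all genes passed, and 3 of the 61 had an unadjusted p under 0.05, against 4.68% of all genes.

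Of 39 intracellular effectors tested, 4 were higher and 4 lower with age in DBA/2J over all libraries, where 9.25% of all genes were higher and 13.2% lower. The lower ones were Mical2, an enzyme that takes apart actin below plexins (-1.55 ± 0.37, and -0.78 within stretch 3), the kinase Rock1 (-0.63 ± 0.13, and 0.0088 within stretch 3), the Rac regulator Chn1 below EphA4 (-0.43 ± 0.14, and 0.20 within stretch 3) and the kinase Pak3 (-0.30 ± 0.10, and 0.039 within stretch 3). The higher ones were Dpysl3, Fes, Farp2 and Limk2, by 0.35 to 0.62. With nicotinamide 5 were higher (Pak1, Rock2, Vav3, Rock1 and Chn1) and 2 lower (Fes and Farp1), where 9.78% of all genes were higher and 5.34% lower. Within stretch 3, 0 of 38 passed with limma in either comparison.

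Of 32 other cues and receptors tested with age in DBA/2J, 9 were lower and 3 higher, where 13.2% of all genes were lower and 9.25% higher. The adhesion molecule of axons L1cam fell by 1.58 on the log2 scale (± 0.29, adjusted p = 0.000356), the related Alcam by 1.46 (± 0.42, adjusted p = 0.0115) and the Nogo receptor partner Lingo1 by 1.21 (± 0.34, adjusted p = 0.0094). Within stretch 3 their differences were -0.76, -0.76 and -0.68 (adjusted p = 0.648, 0.766 and 0.61). The other lower genes were Ret, Shh, Cntn2, Lrrc4c, Ntng1 and Fzd3, and Ntng2, Ptch1 and Met were higher. With nicotinamide Alcam (2.37 ± 0.47), L1cam (1.75 ± 0.32), Ret (1.74 ± 0.30), Shh (1.70 ± 0.28), Lingo1 (1.56 ± 0.38) and Fzd3 (0.45 ± 0.14) were higher and Met, Rgma and Ptch1 lower, of 33 tested, where 9.78% of all genes were higher and 5.34% lower. Within stretch 3 the nicotinamide differences of L1cam (0.94 ± 0.37) and Lingo1 (1.03 ± 0.35) had adjusted p = 0.248 and 0.19, and those of Alcam (1.67 ± 0.62), Ret (1.46 ± 0.35) and Shh (1.27 ± 0.46) were not called (adjusted p = 0.224, 0.0999 and 0.206), and 0 of 32 passed with limma. Both lists gave 0 calls in the strain comparisons and for age in D2-Gpnmb+ over all libraries. Within stretch 1, strain at 9 months gave 1 effector higher (Dpysl3) and 5 lower of 38, and 3 other cues and receptors higher (Celsr3, Flrt3 and Ntng2) and 12 lower of 32, where 4.56% of all genes were higher and 7.69% lower. In the interaction over all libraries 1 of 33 other cues and receptors passed, Ntng2 (0.91 ± 0.23, adjusted p = 0.0483), with 0.375% of all genes. Within stretch 3, 0 of 33 passed in the interaction. Nicotinamide against young DBA/2J gave 1 of 32, Ntng1 (-0.48 ± 0.11, adjusted p = 0.0392), with 1.54% of all genes. Effectors gave 0 of 40 and 0 of 38 in these 2 comparisons over all libraries.

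Members with few reads were left out of single fits by the filter on low values. Over all libraries, Efna3 was left out of all 7 comparisons and Efna4 of 5, and Efna1, Epha2, Robo3 and Sema3c of the fits of strain at 4 months, age in D2-Gpnmb+ and nicotinamide against young DBA/2J. Epha1 was left out of the first and the last of these, Efna2 of the first and Ntn1 of the last.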

How the data were processed

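The deposited signal values are normalised read counts per gene: the authors divided gene read counts by a library factor whose derivation is not given in the sources used here. The submitters' processing notes name TopHat2 2.0.7, Bowtie2 2.0.6, HTSeq and the build mm10. Every value was a whole multiple of the value of 1 read (100% within a tolerance of 0.05), so whole reads were recovered. All 61 columns were matched to groups by name, not to single samples, and 22 rows with date-like names were left out.

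Main tests used limma 3.58.1 (R 4.3.3) with a trended, robust prior on log2(value + 1), over the groups compared. A gene was tested where the number of its libraries at or above 1 reached the size of the smallest group. P-values were Benjamini-Hochberg adjusted over all genes (threshold 0.05). The tests were checked on simulated data. Alternatives were edgeR 4.0.16 (quasi-likelihood) and DESeq2 1.42.0 on recovered reads, reads scaled to the library total, pseudocounts of 0.25 and 4, no filter, each library left out, and the stretch as a term or stretch 3 alone. Fits within stretches 1 and 2, and those leaving out libraries within a stretch, were added after seeing the data. Members and lists were chosen with earlier results of these data known. Named genes were up to 8 called higher and 8 lower per comparison, the 2 highest of each family, textbook ganglion cell axon genes, and Slit3; other names were chosen after their values were seen. Levels per kb used exon lengths of GENCODE M21. A listed rod marker is not reported here and is in no sum or count.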

Additional observations from a re-analysis of the deposited data

Results flagged for a closer look

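Dixon's gap test was run on the untransformed values of 36 guidance genes in 4 groups of 7 to 10 libraries. In 13 of 144 sets the highest library was set apart from the others. The test's rate of about 1 in 20 holds for normally distributed values, so it gives no chance rate for these read counts. Several flags also share a library. In 9-month D2-Gpnmb+, library 8 was the highest for Epha6 (6.82, next 1.76), Plxna1 (36.4, next 23.6), Plxna4 (62.6, next 30.2) and Robo1 (20.3, next 6.78). In the nicotinamide group, library 2 was highest for Epha7 (271.7, next 168), Sema5b (24.4, next 12.99) and Slit3 (81.7, next 8.12), and library 5 for Ephb1 (16.8, next 8.77). Young DBA/2J library 1 stood apart for Plxna4 (59.6, next 34.2) and library 3 for Slit1 (5.92, next 3.27). Young D2-Gpnmb+ library 6 stood apart for Plxnd1 (4.33, next 2.24), library 1 for Slit1 (5.84, next 3.34) and library 9 for Unc5c (64.6, next 43.3).

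The change with age differed between the strains for Epha4 by -0.96 on the log2 scale over all libraries and for Slit3 by 3.16 within stretch 3, both by the interaction test of limma (adjusted p = 0.0256 and 0.0103).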

How the results depend on the processing

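Counts of guidance genes called moved as follows. For strain at 9 months, edgeR gave 1, DESeq2 3 and stretch 1 alone 27, and leaving out 1 library gave 0 to 1. For age in DBA/2J, the stretch as a term gave 0, stretch 3 gave 2, and stretch 3 without water library 26, 27 or 28 gave 1, 4 and 2; leaving out 1 library gave 15 to 22. For age in D2-Gpnmb+, edgeR gave 22 and DESeq2 25, and leaving out 1 library gave 0 to 22 (12, 22, 10 and 15 without 9-month libraries 9, 13, 14 and 15). For the interaction, DESeq2 gave 4, scaling to the library total 4 and a pseudocount of 4 gave 2; leaving out 1 library gave 0 to 5, with 0 without D2-Gpnmb+ libraries 1, 4 or 6 of 9 months, DBA/2J libraries 1 or 4 of 4 months, or D2-Gpnmb+ libraries 4, 5 or 6 of 4 months. For nicotinamide, the stretch as a term gave 0, stretch 3 gave 0, and without library 26, 27 or 28 it gave 0, 7 and 0; leaving out 1 library gave 11 to 17. Against young DBA/2J, DESeq2 gave 2 and scaling to the library total 0, with 0 to 2 on leaving out 1 library. The cause was not tested.

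Directions reversed under the stretch settings. For age and nicotinamide in DBA/2J, the fit with the stretch as a term takes its difference from stretch 3 alone. It therefore repeats the stretch 3 value. With the stretch as a term, within stretch 3, and there without library 26, 27 or 28, the age differences in DBA/2J were 0.16, 0.16, 0.061, 0.055 and 0.36 for Dcc, 0.47, 0.47, 0.40, 0.48 and 0.54 for Epha7 and -0.58, -0.58, -0.40, -0.75 and -0.58 for Plxnb2. The nicotinamide differences were -0.30, -0.30, -0.21, -0.20 and -0.50 for Dcc and -0.38, -0.38, -0.31, -0.39 and -0.45 for Epha7. Epha10 had 0.071 for age with the term and in stretch 3, and 0.17 and 0.26 without library 26 or 28; its nicotinamide values without these were -0.037 and -0.13. Without library 26, the age difference was 0.13 for Plxna4 and 0.14 for Sema3d, and the nicotinamide difference -0.085 for Unc5d and -0.29 for Epha4. Without library 28, age gave 0.24 for Sema3d and -0.11 for Plxnd1, and nicotinamide -0.013 for Sema3d and -0.079 for Unc5d. Epha4 was at -0.0024 for nicotinamide with the term and in stretch 3, and at -0.010 for age in D2-Gpnmb+ in stretch 3 without library 15. No paired analysis was possible because the groups share no replicate numbers that the labels use to pair samples, and columns are matched to groups only. Depth limits Efna3, Efna4 and the genes under a mean of 1.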
